A study of Mus musculus with 8 samples.

Results

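The genes described here are the mouse zinc finger genes whose symbol is Zfp followed by a digit. Rows of the deposited expression table were taken where the biotype was protein coding and the mean over the 6 RNA libraries was at least 50 normalized counts, that is gene read counts divided by 1 size factor per library. This gave 259 genes of the 363 protein-coding Zfp genes and of 23346 genes listed in all. The other 104 protein-coding Zfp genes had lower means, and a further 11 Zfp rows had another biotype. The genes were thus chosen by their symbol and by their mean over both genotypes, not by the difference between them. Just inside the limit were Zfp867 at 51.2, Zfp442 at 51.4 and Zfp39 at 53.2 normalized counts. Just outside it were Zfp618 at 49.9, Zfp580 at 49.3 and Zfp975 at 48.8.

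The RNA came from bone marrow-derived macrophages (BMDM), which are macrophages grown from marrow cells in medium with the growth factor M-CSF. The 3 control libraries were from mice labelled Ets1 f/f, in which both Ets1 alleles are floxed, and the 3 knockout libraries were from mice labelled Ets1 f/f * Lyz2-cre. Lyz2-cre drives the recombinase from a gene active in myeloid cells, so marrow cells of other lineages keep Ets1, and the controls carried no Cre. Ets1, the deleted gene, encodes an ETS family transcription factor that binds DNA around a GGAA core. Chromatin bound by Ets1 was sequenced (ChIP-seq) in BMDM of wild type C57 mice that had been polarized to an M1 or an M2 state by agents the labels do not name, 1 library for each. All marrow was from males aged 8 weeks, and all cells were cultured for 7 days with 10% serum and 10 ng/ml M-CSF. The ChIP cells were then fixed for 10 min in 1% formaldehyde, and their libraries took 15 cycles of PCR. No label ties the replicates to separate animals or cultures, so a p-value here sets a difference against a spread between libraries that could be technical only.

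A zinc finger is a small protein fold held by a zinc ion, and the symbol Zfp records the fold and not a shared task. Most of these genes encode proteins with tandem fingers of the C2H2 type, which read DNA sequence. Many carry a KRAB domain, which recruits the corepressor Trim28 and the histone methyltransferase Setdb1 and is known for silencing retroelements and imprinted regions, and such genes lie in clusters that arose by duplication. A few members are of other kinds, such as Zfp36 and its relatives, CCCH proteins that bind AU-rich elements in mRNA and hasten decay of cytokine mRNA in macrophages. The authors' annotation put 223 of the 259 genes in the family zf-C2H2 and 1 in ZBTB, and gave 35 no transcription factor family.

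As picked examples beside the ChIP data, the promoters of 6 called genes follow. Each is the 250 bases before the RefSeq start, read 5′ to 3′ along the gene (RefSeq, build GRCm38.p6). Capitals mark the ETS-type sequence CCGGAAG, or CTTCCGG where it lies on the other strand. Of these genes, Zfp958, Zfp655 and Zfp518a rose in knockouts and Zfp53 fell, and all 4 had the 7-letter sequence before the start and an Ets1 summit near the start in both states. Zfp281 rose and had summits 11 and 14 bp inside the start without the sequence. Zfp811, with the largest rise among the 259 genes, had neither. Zfp958 is from chr8:4612920-4613169 on the plus strand, and its sequence begins at base -19, counted back from -1 just before the start. Zfp655 is from chr5:145231492-145231741 on the plus strand, with the sequence at -32. Zfp518a is from chr19:40894455-40894704 on the plus strand, with the sequence at -73. Zfp53 is from chr17:21488738-21488987 on the plus strand, with the sequence at -65. Zfp281 is from chr1:136624651-136624900 on the plus strand. Zfp811 is from chr17:32809932-32810181 on the minus strand.
Zfp958: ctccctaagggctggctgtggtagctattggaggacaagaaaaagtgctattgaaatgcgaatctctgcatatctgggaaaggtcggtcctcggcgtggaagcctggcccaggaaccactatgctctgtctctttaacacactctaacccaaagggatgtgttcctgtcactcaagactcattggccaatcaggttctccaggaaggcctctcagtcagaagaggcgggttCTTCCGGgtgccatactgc
Zfp655: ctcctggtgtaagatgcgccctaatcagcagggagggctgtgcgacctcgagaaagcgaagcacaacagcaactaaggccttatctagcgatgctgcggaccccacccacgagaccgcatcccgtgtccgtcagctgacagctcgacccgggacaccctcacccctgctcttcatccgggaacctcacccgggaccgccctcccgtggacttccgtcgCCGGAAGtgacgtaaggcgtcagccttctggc
Zfp518a: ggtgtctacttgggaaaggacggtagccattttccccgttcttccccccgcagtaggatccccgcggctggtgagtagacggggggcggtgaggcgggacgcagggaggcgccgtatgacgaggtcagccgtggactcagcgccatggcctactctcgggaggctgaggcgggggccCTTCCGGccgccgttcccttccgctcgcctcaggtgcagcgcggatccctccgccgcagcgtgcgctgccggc
Zfp53: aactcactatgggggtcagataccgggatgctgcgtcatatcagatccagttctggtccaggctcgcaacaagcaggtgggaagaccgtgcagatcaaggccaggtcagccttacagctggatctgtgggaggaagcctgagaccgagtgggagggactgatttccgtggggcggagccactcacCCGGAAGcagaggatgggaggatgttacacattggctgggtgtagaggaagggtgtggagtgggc
Zfp281: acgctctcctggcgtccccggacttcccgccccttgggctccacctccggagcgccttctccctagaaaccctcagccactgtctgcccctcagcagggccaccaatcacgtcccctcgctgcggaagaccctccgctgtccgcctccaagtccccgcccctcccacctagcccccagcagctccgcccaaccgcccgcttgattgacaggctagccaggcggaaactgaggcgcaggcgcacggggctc
Zfp811: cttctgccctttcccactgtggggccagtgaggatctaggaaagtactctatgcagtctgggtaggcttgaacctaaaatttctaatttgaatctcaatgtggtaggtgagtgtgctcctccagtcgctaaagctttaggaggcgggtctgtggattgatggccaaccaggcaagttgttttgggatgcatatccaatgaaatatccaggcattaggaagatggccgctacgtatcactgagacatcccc

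Most Zfp genes differed little between genotypes. Of the 259 genes, 25 rose and 9 fell in knockouts at an adjusted p under 0.05 (limma), and 225 did not pass. The share called was 13.1%, against 20.9% of all 20595 genes tested and 31.7% of the 10378 protein-coding genes with a mean of at least 50. By direction, 9.65% of the Zfp genes were called higher and 3.47% lower, against 18.9% and 12.8% of those protein-coding genes. The groups did not overlap in 78 Zfp genes (30.1%), against 36.8% of all genes tested and 50% of the protein-coding genes. These shares are descriptions, with no test of the family against other genes.

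The changes were small in size as well as few. The median log2 fold change, knockout over control, was 0.04 over the 259 genes and 0.03 over the protein-coding genes, and the middle 80% of Zfp genes lay between -0.31 and 0.37. The absolute log2 fold change was under 0.25 in 170 Zfp genes (65.6%, against 54.7% of protein-coding genes). It reached 1 in 2 Zfp genes (0.772%, against 4.28%), namely Zfp811, which rose, and Zfp532, which fell. The ratio of group means was under 1.5 in 247 of the 259 genes. The median standard error of a log2 fold change was 0.13 for Zfp genes and 0.11 for the protein-coding genes. With values scaled to total reads, which shifted the median over all genes by -0.126 (log2), the median of the Zfp genes changed sign to -0.09. Under that scaling 9 Zfp genes were called higher and 22 lower, so 29% of the calls were higher. This share was 73.5% under the deposited scaling and 60% under edgeR's TMM scaling (21 higher, 14 lower). The calls over all genes shifted too, with 1183 higher and 3246 lower under total-read scaling. They were 2142 and 2156 under the deposited scaling and 1870 and 2464 under TMM. All 25 genes that rose had a log2 fold change above 0 under total-read scaling, and 9 of them were still called.

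**Figure D1:**
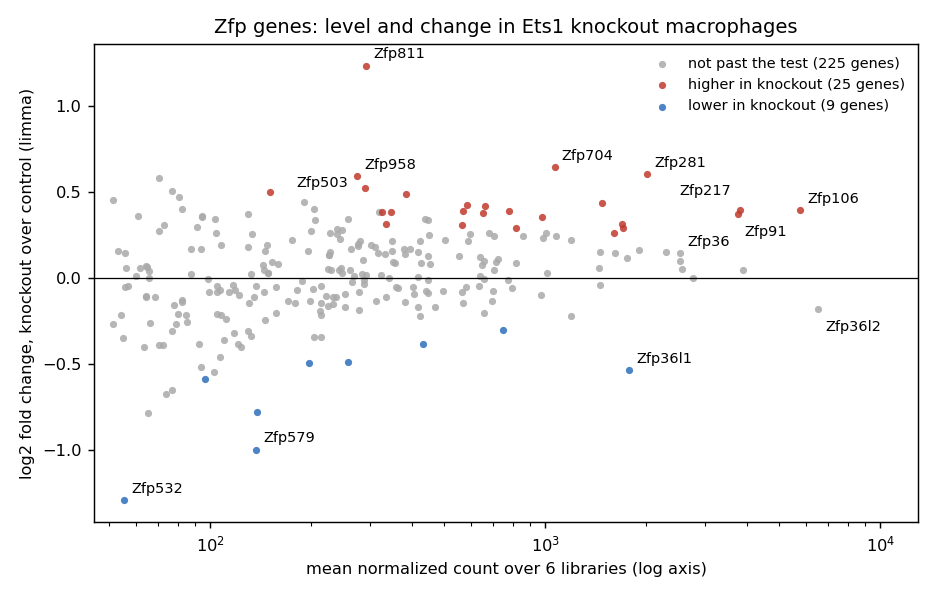
Each point is 1 of the 259 Zfp genes, with its mean normalized count over the 6 libraries on a log axis and its log2 fold change, knockout over control, from limma. Red points are the 25 genes called higher, blue points the 9 called lower and grey points the 225 that did not pass; Zfp811 at 1.23 and Zfp532 at -1.29 lie farthest from 0.

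The share of Zfp genes called rose with their level, and this rise lay in the genes called higher in knockouts. In the band of 50 to 200 normalized counts, 6 of 104 Zfp genes were called (5.77%), against 23.9% of 2309 protein-coding genes. In the band of 200 to 500, 9 of 91 Zfp genes were called (9.89%), against 22.9% of 2431. At 500 and over, 19 of 64 were called (29.7%), against 38.6% of 5638. From the lowest band to the highest, 0.962%, 7.69% and 26.6% of Zfp genes were called higher. Those called lower were 4.81%, 2.2% and 3.12%. In that highest band 26.6% of Zfp genes were higher in knockouts, against 29.2% of protein-coding genes, while 3.12% were lower, against 9.4%. The family is also set low in level, with a median mean of 245 normalized counts against 598 for the protein-coding genes. By annotation, 23 of the 223 zf-C2H2 members were called (10.3%) and 11 of the other 36 (30.6%), whose median level was higher (576 against 222). Of 96 zf-C2H2 genes with other names and a mean of at least 50, 24 were called (25%).

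**Figure D2:**
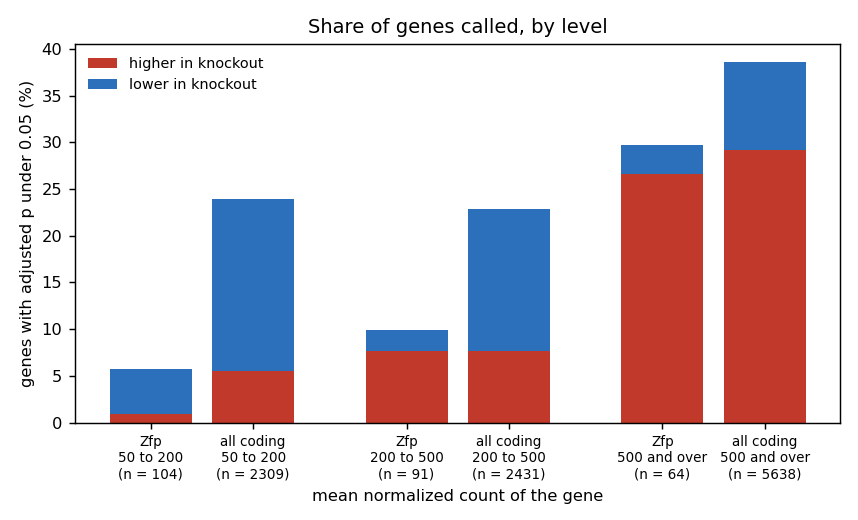
Bars give the percentage of genes with an adjusted p under 0.05 (limma), higher in red and lower in blue, for Zfp genes and for all protein-coding genes in 3 bands of mean normalized count. Zfp bars are shorter in each band, and the difference lies mostly in the blue part, 4.81% against 18.4% at 50 to 200 and 3.12% against 9.4% at 500 and over.

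The family held a small share of the RNA in both genotypes. Summed normalized counts of the 259 genes were 127335, 123263 and 116710 in control replicates 1 to 3 and 131554, 132994 and 130980 in knockout replicates 1 to 3. All 3 knockout sums were above the controls, while as a share of all normalized counts the groups overlapped, at 0.695% to 0.714% in controls and 0.688% to 0.698% in knockouts. The 10 most abundant genes held 28.6% of the sum. The median coefficient of variation between replicates was 10.4% in controls and 8.06% in knockouts.

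The 5 highest means belonged to Zfp36l2 (6525), Zfp106 (5756), Zfp710 (3886), Zfp217 (3822) and Zfp91 (3750). Zfp106, an RNA-binding protein known from the upkeep of motor neurons and muscle, held 5514, 4927 and 4500 normalized counts in controls and 6844, 6280 and 6472 in knockouts. All 3 knockouts lay above all 3 controls, and the gene rose 1.31-fold (log2 fold change 0.40 ± 0.08 SE, adjusted p = 0.00617, limma). Leaving out control replicate 2 moved its adjusted p to 0.0534, and leaving out knockout replicate 1 moved it to 0.054. Zfp710 held 3963, 3881 and 3626 in controls and 4004, 3911 and 3931 in knockouts. Its groups overlapped, and the log2 fold change was 0.05 ± 0.07 SE (adjusted p = 0.67). Divided by gene length, the highest levels were those of Zfp36l2, at 1965 normalized counts per kb in controls and 1732 in knockouts.

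Of the CCCH genes of mRNA decay, Zfp36l1 fell, and neither Zfp36 nor Zfp36l2 passed the test. Zfp36l1 held 2151, 2103 and 2075 normalized counts in controls and 1393, 1564 and 1409 in knockouts. Every knockout lay well below every control, a 1.45-fold fall (log2 fold change -0.54 ± 0.08 SE, adjusted p = 0.000424, limma), and the call held in all 6 fits that left out 1 library. Zfp36l2 held 6975, 6913 and 6919 in controls and 5948, 6161 and 6237 in knockouts. These groups did not overlap, yet the log2 fold change of -0.18 ± 0.07 SE had an adjusted p of 0.077 (0.00421 to 0.232 over all fits, with 6 of 16 alternatives under 0.05). Zfp36, which encodes tristetraprolin, held 2107, 2454 and 2677 in controls and 2668, 2811 and 2480 in knockouts. Here the groups overlapped (log2 fold change 0.14 ± 0.09 SE, adjusted p = 0.319). Per kb of gene length, Zfp36l1 went from 706 to 487 normalized counts and Zfp36 from 695 to 765.

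The decay machinery and textbook targets of these proteins were read from lists. Of 22 genes of the CCR4-NOT deadenylase and of decapping, 3 rose and none fell. The 3 were the scaffold Cnot1, the deadenylase Cnot6l and the decapping enzyme Dcp2. Of protein-coding genes with a mean of at least 50, 18.9% were called higher and 12.8% lower. At 500 and over, where most of these 22 lie, the shares were 29.2% and 9.4%. Of 15 tested mRNAs known as AU-rich targets, Tnf rose and Ccl2, Cxcl2, Ier3, Fos and Vegfa fell, where 10.4% of all genes tested were called higher and 10.5% lower. Tnf held 926, 1094 and 1143 normalized counts in controls and 1314, 1398 and 1390 in knockouts (log2 fold change 0.38, adjusted p = 0.0111). Ccl2 held 664, 768 and 792 in controls and 349, 347 and 347 in knockouts (log2 fold change -1.09, adjusted p = 1.43e-05). The median log2 fold change over the 15 was -0.15, against -0.04 over all genes tested. No link between the decay genes and these mRNAs was tested.

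Among genes tied to chromatin and transcription, 3 of the 14 at or above the level limit rose and 1 fell, against 18.9% and 12.8% of protein-coding genes at that limit. Zfp281, a regulator known from embryonic stem cells, held 1733, 1693 and 1398 normalized counts in controls and 2434, 2503 and 2352 in knockouts. Knockouts were clear of controls by a wide gap, with a 1.51-fold rise (log2 fold change 0.60 ± 0.09 SE, adjusted p = 0.000624, limma). Zfp217, a corepressor-associated factor known as an oncogene in human breast cancer, held 3557, 3451 and 2911 in controls and 4615, 4247 and 4151 in knockouts. Knockouts were all above controls (log2 fold change 0.40, adjusted p = 0.00753), but the adjusted p was 0.0632 without knockout replicate 1 and 0.0529 without knockout replicate 2. Zfp518a held 627, 593 and 487 in controls and 696, 752 and 756 in knockouts, without overlap. Its adjusted p of 0.0239 went above the threshold in 5 of the 6 fits with a library left out (up to 0.115) and under total-read scaling (log2 fold change 0.24, adjusted p = 0.0976).

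Zfp532 had the largest fall among the 259 genes, and its mean of 55.3 passed the level limit only through the controls (78.9 against 31.7 in knockouts). Larger called falls were found below the limit in Zfp521 (-2.56), Zfp423 (-2.01), Zfp697 (-1.76) and Zfp827 (-1.55). This gene, whose human counterpart works in a complex with those of Zfp592 and Zfp687, held 95.1, 78.6 and 63 normalized counts in controls and 29.4, 39.9 and 25.7 in knockouts. All knockouts were under all controls, a 2.49-fold fall (log2 fold change -1.29 ± 0.26 SE, adjusted p = 0.00408, limma). Zfp592 and Zfp687 did not pass, with log2 fold changes of 0.15 and 0.25 and adjusted p-values of 0.306 and 0.181. Zfp462 held 116, 74.7 and 83.6 in controls and 63.1, 60.3 and 45.8 in knockouts. Its groups did not overlap, and its log2 fold change of -0.68 had an adjusted p of 0.0518 (0.0234 to 0.182 over all fits). Zfp827, with a mean of 28.8, is on the same list (adjusted p = 0.00723). Zfp410, which in mouse activates the chromatin remodeller Chd4, had a log2 fold change of -0.06 (adjusted p = 0.726). The others on the list did not pass either: log2 fold changes were 0.34 for Zfp518b, 0.25 for Zfp143, 0.15 for Zfp516, 0.08 for Zfp451, 0.01 for Zfp644 and -0.19 for Zfp326. Without control replicate 1, Zfp687, Zfp516 and Zfp143 passed (adjusted p = 0.012, 0.0497 and 0.0182).

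Of 9 immune and haematopoietic genes at or above the limit, 2 rose, against 18.9% of protein-coding genes. Zfp91, a ubiquitin ligase that acts on the kinase NIK in noncanonical NF-kB signalling, held 3448, 3271 and 3103 normalized counts in controls and 4253, 4285 and 4139 in knockouts. The knockouts lay close together and above every control (log2 fold change 0.37 ± 0.07 SE, adjusted p = 0.00348, limma), and the call held in every fit run. Zfp91 overlaps Cntf in the annotation. Zfp148, a factor that binds GC-rich DNA, held 1689, 1487 and 1370 in controls and 1840, 1849 and 1930 in knockouts. No knockout was as low as a control (log2 fold change 0.31, adjusted p = 0.0234), while the adjusted p passed 0.05 without control replicate 2 (0.111) and without any 1 of the knockouts (0.084 to 0.107). Total-read scaling also ended the call (log2 fold change 0.18, adjusted p = 0.125). Zfp318, known for control of IgD in B cells, had a log2 fold change of 0.08 (adjusted p = 0.646). The remaining genes did not pass, with log2 fold changes of 0.24 for Zfp335 and Zfp609, 0.22 for Zfp467, 0.14 for Zfp385a, 0.04 for Zfp608 and -0.04 for Zfp384. Without control replicate 1, Zfp335, Zfp467 and Zfp609 passed (adjusted p = 0.0223, 0.0139 and 0.0432). Zfp521 and Zfp423, on the same list but far under the level limit, fell, with adjusted p-values of 0.00638 and 0.0427 and reads of 75 against 7 and 16 against 2 summed over each group.

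Of 3 genes of ribosome assembly and translation at or above the level limit, 1 rose and 1 fell. Among protein-coding genes at that limit, 18.9% were called higher and 12.8% lower. Zfp622, whose yeast relative Rei1 matures the large ribosomal subunit, held 755, 760 and 688 normalized counts in controls and 860, 936 and 899 in knockouts. It rose 1.22-fold without overlap (log2 fold change 0.29, adjusted p = 0.0277, limma). Zfp598, the ubiquitin ligase that marks collided ribosomes, held 815, 804 and 852 in controls and 684, 671 and 649 in knockouts. It fell 1.23-fold without overlap (log2 fold change -0.30, adjusted p = 0.0198). Both calls were lost when certain libraries were left out, with adjusted p-values up to 0.127 for Zfp622 and 0.0858 for Zfp598. Zfp622 also lost its call under total-read scaling (log2 fold change 0.16, adjusted p = 0.188) and limma voom (adjusted p = 0.0549). Zfp706 did not pass (log2 fold change 0.16, adjusted p = 0.142), nor did Zfp593, under the level limit (-0.84, adjusted p = 0.236).

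None of the 4 genes of imprint and retroelement silencing that met the level limit was called, against 31.7% of protein-coding genes at that limit. Zfp445, which maintains imprints in mouse, held 2404, 2508 and 2630 normalized counts in controls and 2585, 2660 and 2555 in knockouts. The groups overlapped (log2 fold change 0.05 ± 0.07 SE, adjusted p = 0.661). Zfp568, a repressor of Igf2 in the mouse embryo, had a log2 fold change of 0.06 ± 0.15 SE. Zfp809, which silences proviral DNA in mouse embryonic cells, had 0.19 ± 0.13 SE. Zfp932 had -0.20 ± 0.16 SE. Below the limit, Zfp57 and Zfp819 were not called (adjusted p = 0.0627 and 0.743, limma). Zfp57 had a log2 fold change of -2.04 and groups without overlap, but only 35 reads over the controls and 5 over the knockouts. Zfp819 had a log2 fold change of 0.36. Of 20 genes for corepressors and heterochromatin, 7 rose and none fell: Setdb1, Atf7ip, Chd4, Dnmt1, Morc2a, Atrx and Ehmt2. Among protein-coding genes 18.9% were called higher at a mean of at least 50 and 29.2% at 500 and over. Setdb1 held 1868, 1811 and 1665 in controls and 2156, 2276 and 2277 in knockouts (log2 fold change 0.33, adjusted p = 0.00886). Trim28 did not pass (log2 fold change 0.16, adjusted p = 0.148).

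Outside the role lists, Zfp811, a C2H2 gene of chromosome 17, had the largest rise among the 259 genes. It held 187, 178 and 152 normalized counts in controls and 505, 373 and 353 in knockouts. The lowest knockout was well above the highest control, a 2.38-fold rise (log2 fold change 1.23 ± 0.15 SE, adjusted p = 0.000129, limma). Its call held in all 16 alternatives. Zfp704 held 872, 932 and 699 in controls and 1361, 1376 and 1158 in knockouts. It rose 1.56-fold without overlap (log2 fold change 0.64 ± 0.11 SE, adjusted p = 0.00186). Zfp958 held 227, 232 and 197 in controls and 324, 340 and 326 in knockouts. All knockouts were far above the controls (log2 fold change 0.59 ± 0.11 SE, adjusted p = 0.00317). Zfp503, a repressor of the NET family also called Nolz1, held 245, 232 and 238 in controls and 354, 346 and 326 in knockouts. It rose 1.44-fold without overlap (log2 fold change 0.52 ± 0.10 SE, adjusted p = 0.00442).

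The remaining genes among the 12 largest rises were smaller and less firm. Zfp658 held 120, 118 and 136 normalized counts in controls and 182, 172 and 174 in knockouts. Zfp709 held 394, 305 and 272 in controls and 430, 453 and 459 in knockouts. Zfp984 held 548, 531 and 425 in controls and 670, 666 and 672 in knockouts. In none of these genes did the groups overlap, with adjusted p-values of 0.0226, 0.0202 and 0.0136. Zfp407 held 653, 578 and 472 in controls and 709, 802 and 747 in knockouts, again without overlap (adjusted p = 0.0231). Each of these calls was lost when certain libraries were left out, with adjusted p-values up to 0.0938 for Zfp658, 0.109 for Zfp709, 0.0746 for Zfp984 and 0.131 for Zfp407. Total-read scaling also ended all 4 calls, with adjusted p-values of 0.0901, 0.0601, 0.0507 and 0.078. Over all 25 genes that rose, the fold ran from 1.20 to 2.38 with a median of 1.31, and 4 reached 1.5-fold. The groups did not overlap in any of the 25, which adds no support, as the calls came from the same values. Control replicate 3 was the lowest control in 20 of the 25, against 130 of all 259 Zfp genes and 4684 of 10378 protein-coding genes.

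Of the 9 genes that fell, all but Zfp36l1 and Zfp598 had means under 500, but so did most Zfp genes. The bands of 50 to 200, 200 to 500 and 500 and over held 104, 91 and 64 Zfp genes. Of these, 4.81%, 2.2% and 3.12% were called lower, without a steady trend with level. Zfp579 held 129, 180 and 243 normalized counts in controls and 72.9, 110 and 87.2 in knockouts. Every control was above every knockout, though the controls were widely spread (a 2.05-fold fall, SE 0.23 on the log2 scale, adjusted p = 0.00856, limma). Its adjusted p was 0.0628 without control replicate 2 and 0.0645 without knockout replicate 1. Zfp692 held 118, 161 and 256 in controls and 94.7, 90.5 and 111 in knockouts. Control replicate 3 stood high, and the lowest control was near the highest knockout (log2 fold change -0.78 ± 0.24 SE, adjusted p = 0.0338). Zfp61 held 106, 132 and 110 in controls and 74, 71 and 84.9 in knockouts, without overlap (log2 fold change -0.59, adjusted p = 0.0324). Zfp422 held 240, 302 and 365 in controls and 191, 240 and 207 in knockouts, and it was the single called gene whose groups overlapped (log2 fold change -0.49, adjusted p = 0.0429). Zfp513 held 401, 502 and 573 in controls and 367, 374 and 378 in knockouts, without overlap (log2 fold change -0.38, adjusted p = 0.0453). Zfp692, Zfp61, Zfp422 and Zfp513 each kept the call in 1 of the 6 fits with a library left out, with adjusted p-values up to 0.15, 0.149, 0.179 and 0.172. Under limma voom Zfp692, Zfp422 and Zfp513 also lost it (0.0588, 0.059 and 0.0561).

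The number of Zfp calls depended on single libraries, as did the number over all genes. With 1 library left out, calls over all genes ran from 2029 to 5716, against 4298 with all libraries. Without control replicate 1, 42 genes were called higher and 14 lower. Without control replicate 2 the counts were 11 and 2, and without control replicate 3 they were 16 and 5. Without knockout replicates 1, 2 and 3 they were 8 and 2, 7 and 3, and 10 and 3. The genes called in all 6 of these fits numbered 8, the same as those called in all 16 alternatives: Zfp811, Zfp704, Zfp281, Zfp958, Zfp503 and Zfp91 rose, and Zfp36l1 and Zfp532 fell. The same count over all genes is not given here, so whether 8 is many or few cannot be said.

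**Figure D3:**
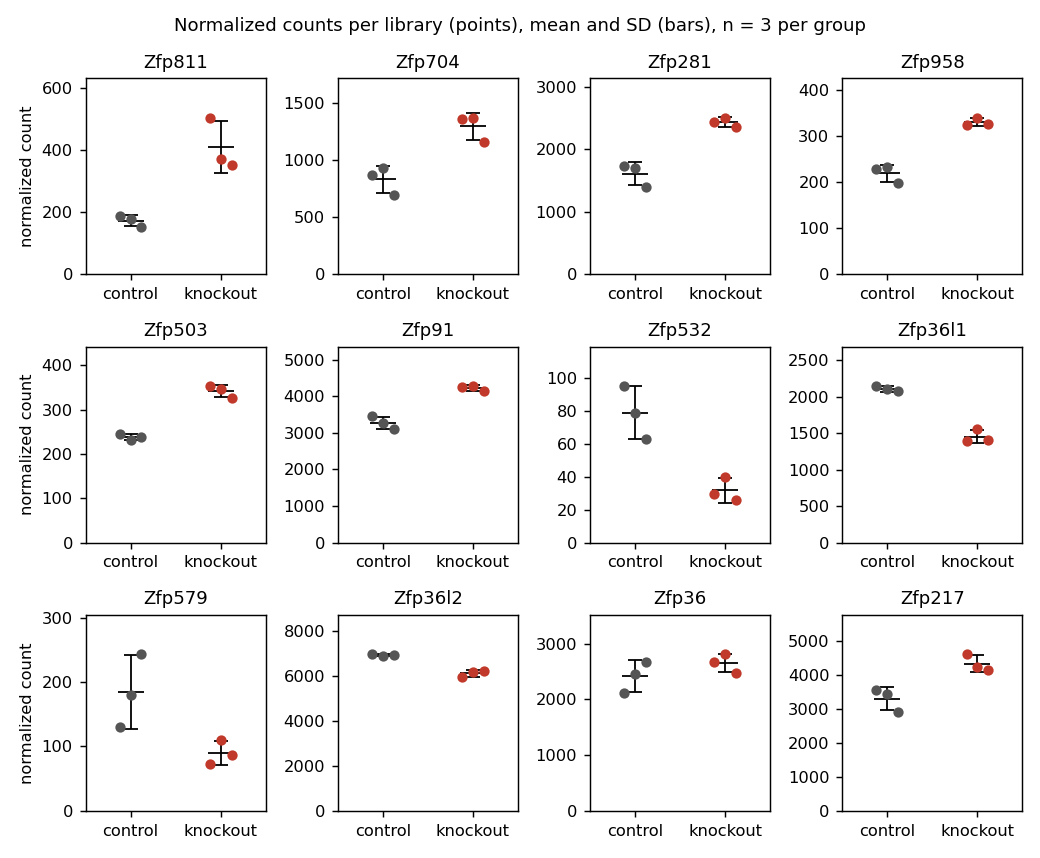
Points are the normalized counts of 12 Zfp genes in the 3 control and 3 knockout libraries, with bars for the mean and SD of each group (n = 3). The first 8 panels are the genes called in every fit, in which the groups do not overlap; in Zfp36 the groups overlap, at 2107 to 2677 in controls and 2480 to 2811 in knockouts.

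Zfp genes lay on 20 chromosomes, with 60 members on chromosome 7, 38 on chromosome 17 and 24 on chromosome 13. Taking runs of at least 4 protein-coding Zfp genes of any level with neighbouring starts at most 250 kb apart (build mm10), 22 clusters held 166 Zfp genes, of which 112 were members. In the clusters 5 of these 112 rose and 3 fell (7.14% called), and outside them 20 of 147 rose and 6 fell (17.7%). The median level was 185 normalized counts in the clusters and 334 outside. No member was called in 15 of the clusters, of which 2 held no member. Near-identical copies are frequent in such clusters, such as Zfp729a and Zfp729b or Zfp874a and Zfp874b, and how reads that match several genes were counted is not given in the sources used here, so values of such pairs are uncertain.

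The cluster with the most members was chr17:21383748-22456689, with 18 Zfp genes and 15 members, of which Zfp53 fell. Zfp53 held 260, 201 and 234 normalized counts in controls and 143, 186 and 163 in knockouts. Controls and knockouts were separate (log2 fold change -0.50 ± 0.15 SE, adjusted p = 0.0313, limma), but no call remained in any fit with a library left out (0.0515 to 0.138). The other 14 members ran from -0.32 to 0.27 in log2 fold change. The cluster at chr13:67038596-67827002, with 22 Zfp genes and 14 members, held no call, and its log2 fold changes ran from -0.36 to 0.36. The cluster at chr17:32771236-33394641 held 12 Zfp genes, all of them members, and 2 rose: the neighbours Zfp871 and Zfp811. Zfp871 held 1413, 1303 and 1067 in controls and 1763, 1700 and 1632 in knockouts. It rose 1.35-fold without overlap (log2 fold change 0.44 ± 0.10 SE, adjusted p = 0.00875), with 0.0648 and 0.0644 without knockout replicates 1 and 2. Both genes lie on the minus strand, with 7388 bp between them, and the other 10 members of this cluster were not called.

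**Figure D4:**
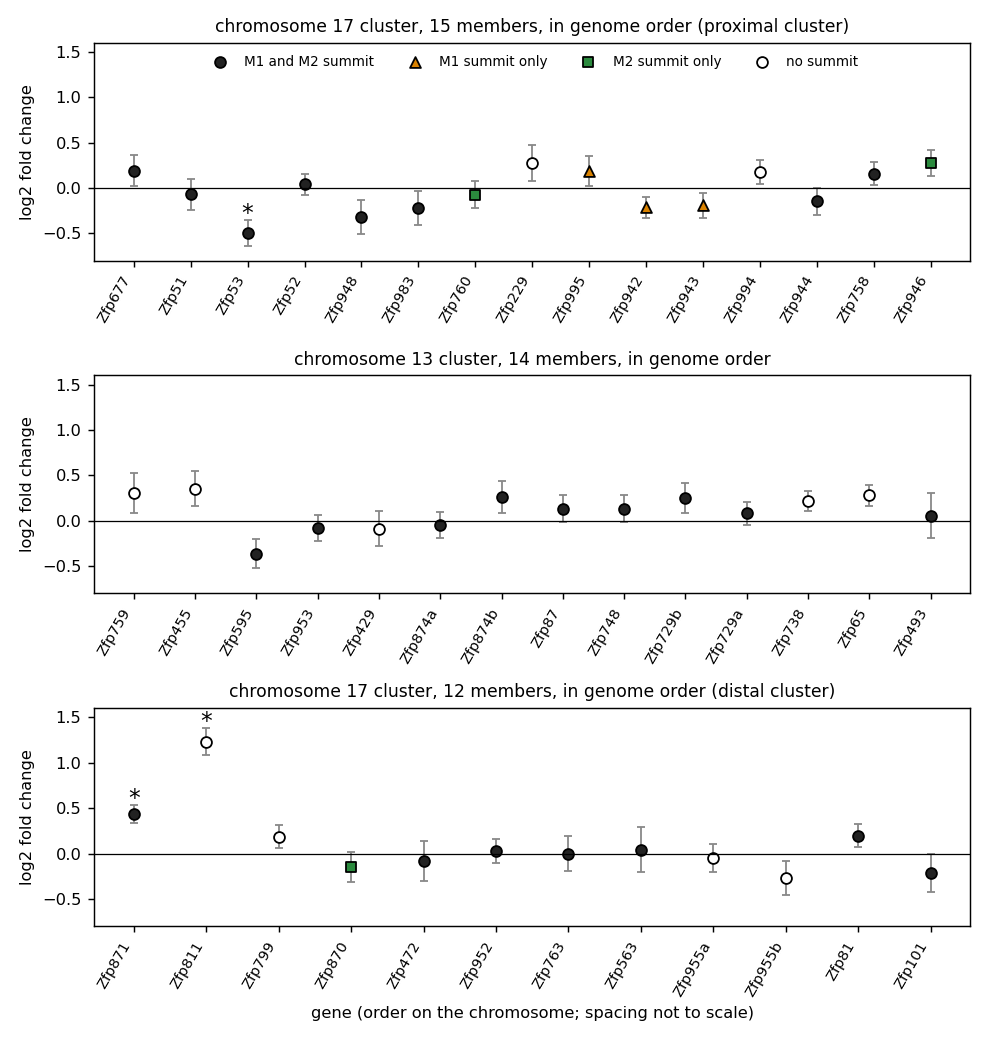
Log2 fold change with its standard error for the Zfp genes of the 3 clusters with most members, in genome order with spacing not to scale; asterisks mark adjusted p under 0.05 and symbols the Ets1 summits within 1000 bp of the start. Zfp871 and Zfp811, at the left of the lowest panel, are adjacent and both above 0, while the 14 genes of the middle panel hold no call.

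Ets1 peaks lay at the start of most Zfp genes. The deposited lists held 23089 peaks in M1 and 22640 in M2 macrophages. A summit lay within 1000 bp of the start in 184 Zfp genes in M1 (71%) and 186 in M2 (71.8%), against 71.7% and 73.5% of the protein-coding genes with a mean of at least 50. Both states had one in 169 genes (65.3%, against 66.7%), M1 only in 15, M2 only in 17 and neither in 58 (22.4%, against 21.6%). With peaks of a −log10 q of at least 10, both states had a summit at 31.3% of Zfp genes, against 38.3%. The 104 Zfp genes below the level limit had fewer, with both states in 25 (24%). With 1 ChIP library per state there is no replicate check, and genes with a summit in a single state are not shown to differ between states.

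The summits sat close to the start, with a median distance of 131.5 bp in M1 and 142 bp in M2. In 140 of the 169 genes with both, the summits of the states were within 200 bp of each other (82.8%, against 86%). The authors' fold enrichment at these summits had a median of 7.68 in M1 and 8.05 in M2, against 8.14 and 8.01 at the other list of protein-coding genes. The highest values belonged to Zfp513, with 16.4 in M1 at 54 bp past the start and 15 in M2, and to Zfp868, with 16.3 and 15.7. Zfp513 overlaps Snx17 in the annotation, so its peak cannot be assigned to 1 of these genes. In all, 78 Zfp genes overlapped another listed gene, 56 of them on the opposite strand, and whether reads were counted by strand is not given in the sources used here.

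**Figure D5:**
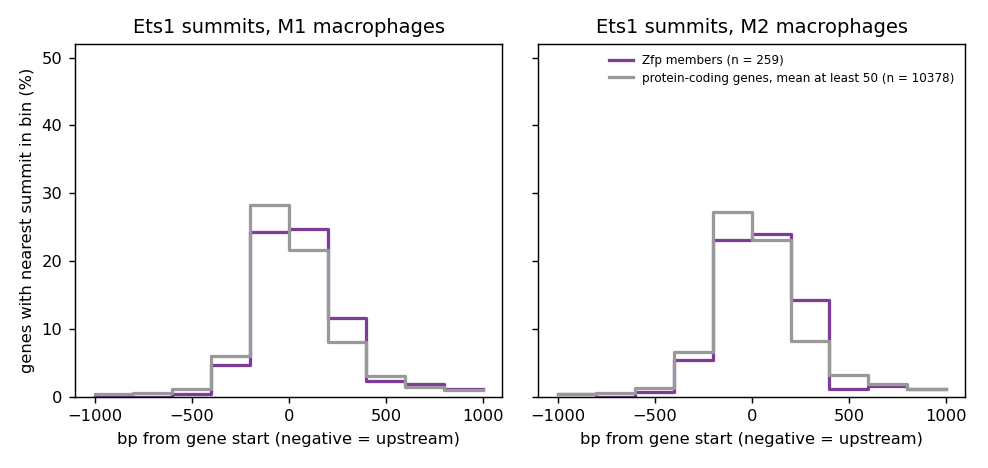
Percentage of genes whose nearest Ets1 summit fell in each 200 bp bin around the gene start, in M1 (left) and M2 (right) macrophages, for the 259 Zfp genes and the 10378 protein-coding genes. Both curves peak in the bins next to the start, with 24.3% and 24.7% of Zfp genes in the bins just before and just after it in M1.

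Zfp genes with and without a summit were called about equally often. Of the 169 with both summits, 19 rose and 4 fell (13.6%), and of the 58 with neither, 4 rose and 4 fell (13.8%). Among protein-coding genes these classes had 28.5% and 40.9% called. The genes with neither summit had a lower median level, 136 normalized counts against 278, and a larger median absolute log2 fold change, 0.26 against 0.15. Of the 8 genes called in every fit, Zfp281, Zfp958, Zfp91 and Zfp36l1 had both summits, while Zfp811, Zfp704, Zfp503 and Zfp532 had none within 1000 bp. For Zfp811 the nearest summits were 21668 bp (M1) and 21602 bp (M2) past the start, at the start of Zfp871. For Zfp503 they were 1861 and 1846 bp past it, and for Zfp704 36257 and 9870 bp past it. The RNA was from cells that were not polarized and the peaks from polarized cells, so the 2 readouts do not come from the same state.

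The sequence CCGGAAG was searched on both strands from 250 bases before to 50 after the RefSeq start, and 215 of the 259 genes had such a promoter in the table. It was found in 49 of them (22.8%), against 22.1% of 8308 protein-coding genes with a mean of at least 50 and 9.93% of all 27025 promoters. Among the 31 called Zfp genes with a promoter, 10 held it (32.3%). It was in 24.1% of the 170 Zfp promoters whose gene had a summit within 1000 bp of the deposited start. Of the 45 without such a summit 17.8% held it, where protein-coding genes had 24.3% and 14%. The deposited start can lie far from the RefSeq start (5428 bp in Zfp217), so motif and summit can belong to different promoters. The shorter CCGGAA, which it contains, was in 41.4% of the Zfp promoters and 33.9% of the protein-coding ones. A match is a match of letters and not a site, and no match says nothing of the factor.

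Checks of the libraries bear on all these values. The libraries held 16897873 to 20259175 recovered reads on genes. Ets1 held 3641, 3337 and 2869 normalized counts in controls and 825, 755 and 645 in knockouts, a 4.43-fold fall (adjusted p = 3.93e-07, limma). On the first principal component, which held 42.1% of the variance, control replicate 3 lay farthest out at -69.3, against -45 and -50.9 for the other controls and 53.2 to 57.4 for knockouts. The summed macrophage markers ran from 282226 to 286177 normalized counts in controls and from 366280 to 381102 in knockouts, with 2 of 8 higher and 1 lower. The median log2 fold change of these 8 was -0.09, so the sum rose while the typical macrophage marker did not. Markers of other cell types moved with the genotype. Of 7 stromal markers 7 fell (sums of 10205 to 15221 in controls, 3368 to 4106 in knockouts), of 8 neutrophil markers 6 fell (19549 to 22978, 11408 to 11887), and of 8 B cell markers 5 fell (4221 to 4931, 3649 to 3880). Of 6 megakaryocyte and platelet markers 5 fell (2931 to 4853, 1091 to 1270), of 6 mast cell and basophil markers 3, of 5 endothelial markers 3, of 8 T and NK cell markers 2 (Cd3e, Cd3g and Ncr1 averaged under 1), and of the dendritic and erythroid lists 1 each. None of these markers of other cell types rose, where 10.4% of all genes tested were called higher and 10.5% lower. Their median log2 fold change was below 0 in each list, from -3.53 for B cells to -0.51 for dendritic cells. It was -1.88 for megakaryocytes and platelets and -1.72 for stromal cells. The B cell sum thus changed less than the typical B cell marker. The part of these markers in the Zfp results was not tested. In such bulk libraries fewer cells of a type and less RNA per cell cannot be told apart.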

How the data were processed

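RNA was measured in 3 control and 3 knockout libraries and Ets1 ChIP in 1 library per state. The deposited expression values were a signal, gene counts that the authors had divided by 1 size factor per library. Dividing by the smallest step in each library gave whole numbers (tolerance 0.001) for 100% of values, so whole reads were recovered. The deposited table also gave the authors' log2 fold change (control over knockout) and p-value, with 33 Zfp genes past an adjusted p of 0.05, of which 23 were higher and 10 lower in knockouts and 32 were also called here in the same direction. The deposited peak lists gave each peak a score, a fold enrichment at the summit, a −log10 p and a −log10 q, in the column order of that format. Per the submitters' processing notes, HISAT2 2.1.0, Bowtie2 2.2.3, HTSeq 0.6.0 and build mm10 were used for RNA, and BWA, SAMtools, MACS2, deepTools and DESeq2 for ChIP, with no role or order. The input control, the handling of duplicates and the peak cutoff are not stated there.

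Genotypes were compared with limma 3.58.1 (R 4.3.3), with an intensity trend on log2(value + 1), for the 20595 genes that averaged 1 or more in a group. P-values were two-sided and adjusted over all genes by the Benjamini-Hochberg method, with 0.05 as the threshold. Fitted log2 fold changes include the pseudocount of 1, folds in words are ratios of means, and SE is limma's standard error. edgeR 4.0.16, DESeq2 1.42.0 and limma voom on the recovered reads were alternatives: they called 4334, 4169 and 3932 genes, against 4298. The fit was tested on simulated data. Summits were placed by the start of the deposited gene record on its strand. All 259 symbols were in the gene name table. Promoters came from RefSeq, and protein sequences were not used here, so the planned split by KRAB signature and count of fingers was not made. Named genes are the 12 called with the largest rises, all that fell, the 5 highest means, all role-list genes (Zfp708 is not analysed here), the 3 on each side of the level limit and those called in the 3 largest clusters; others were chosen after their values were seen. Members and lists were chosen with earlier results of these data known.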

Additional observations from a re-analysis of the deposited data

How the results depend on the processing

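Over the leave-one-out fits, calls ran from 2029 to 5716 among all genes (4298 with all libraries), from 10 to 56 among Zfp genes (34), from 7 to 42 for Zfp genes called higher (25), from 2 to 14 for those called lower (9) and from 5 to 38 for those with both summits (23). Total-read scaling gave 9 higher and 22 lower (1183 and 3246 of all genes), and edgeR with TMM gave 14 lower (2464 of all genes). No called gene changed direction in any fit. At a minimum mean of 20, 25 of 307 Zfp genes were higher and 14 lower (12.7% called, against 31.5% of protein-coding genes). At a minimum mean of 200, 24 of 155 were higher and 4 lower (18.1%, against 33.9%). With peaks of a −log10 q of at least 10, summits lay at 35.9% of Zfp genes in M1, 43.6% in M2 and 31.3% in both, against 42.5%, 47.6% and 38.3% of protein-coding genes. Windows of 500 and 2000 bp, RefSeq starts, peak overlap and cluster gaps of 100 and 500 kb kept within 1.5 times. The cause of these shifts was not tested. Calls for named genes kept their side of the threshold in 799 of the comparisons with an alternative, were lost in 92 and gained in 21. The alternative KRAB signature was not run. Recovered reads limit the precision for genes near 50, as in Zfp532 with 255 reads over the controls and 91 over the knockouts.

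No label says whether replicate numbers pair the samples, and the main fit treated them as unpaired. In deviations from the group means, same-numbered libraries had correlations of 0.0224, 0.023 and 0.0308, each the highest for its number. Libraries of different number had correlations from -0.0173 to -0.00564. Whether this reflects pairing was not tested. With the replicate block, 35 Zfp genes were called higher and 14 lower, and 2652 and 2722 of all genes.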
